A study of Arabidopsis thaliana with 12 samples.

Results

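The 32 nuclear genes examined here encode proteins of the plastid ribosome, 24 of its large subunit and 8 of its small subunit, and they were measured among 25089 Arabidopsis thaliana loci. They are defined by the identity of the encoded protein. Each locus was read through the annotated transcript with the highest mean level over the libraries, so that the 38 transcripts of these loci gave 1 value per gene. RNA-seq was done on 12 libraries, 3 for each of 4 genotypes in the Columbia (Col-0) ecotype. Col-0 was the wild type, and sob3-6 was labelled a dominant-negative ahl mutant. SOB3-D was labelled an AHL overexpressor, and the pif4 pif5 pif7 line was labelled as a triple loss-of-function mutant, carrying pif4-101, pif5(pil6-1) and pif7-1. All plants were 14 days old and were harvested at ZT4 as the part of the plant above a cut in the hypocotyl. Growth was at 22 °C on medium without sucrose, with 16 h of light and 8 h of darkness a day. The series was made to find the genes under the control of AHL and PIF proteins in young rosettes.

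Plastid ribosomes are of the bacterial type and translate the proteins that the plastid genome encodes, among them core subunits of both photosystems and the large subunit of Rubisco. Their RNA and part of their proteins come from the plastid genome, while the other proteins are encoded in the nucleus, made in the cytosol and imported. The nuclear genes are strongly expressed in young green tissue, where chloroplasts are built. AHL proteins bind AT-rich DNA through an AT-hook, and PIFs are bHLH factors that bind G-box and E-box words and act downstream of phytochrome. The roles given below for single ribosomal proteins are known mainly from bacteria.

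S9, L6 and the L19 gene AT4G17560, which are among the 4 genes with the lowest p-values in the comparison of SOB3-D with Col-0 described below, are introduced by the 250 bases before their annotated gene start, since plant ribosomal protein genes often carry site II words near their start. The sequences are from RefSeq (TAIR10.1), read 5′ to 3′ on the strand of the gene, and capitals mark site II words (TGGGCC or TGGGCT on either strand). The regions are chr1:28159318-28159567 (minus strand) for S9, chr4:9779974-9780223 (plus strand) for AT4G17560, and chr1:1503854-1504103 (minus strand) for L6.
S9: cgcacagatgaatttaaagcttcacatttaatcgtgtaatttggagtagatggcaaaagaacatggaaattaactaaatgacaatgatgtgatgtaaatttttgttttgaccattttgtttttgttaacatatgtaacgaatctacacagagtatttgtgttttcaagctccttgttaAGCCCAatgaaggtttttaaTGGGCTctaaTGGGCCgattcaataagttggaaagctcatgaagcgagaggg
L19 (AT4G17560): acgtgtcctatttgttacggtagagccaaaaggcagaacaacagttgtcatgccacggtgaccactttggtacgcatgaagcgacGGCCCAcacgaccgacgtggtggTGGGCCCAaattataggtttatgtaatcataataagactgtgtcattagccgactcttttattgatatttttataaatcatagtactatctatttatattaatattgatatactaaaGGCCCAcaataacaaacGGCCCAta
L6: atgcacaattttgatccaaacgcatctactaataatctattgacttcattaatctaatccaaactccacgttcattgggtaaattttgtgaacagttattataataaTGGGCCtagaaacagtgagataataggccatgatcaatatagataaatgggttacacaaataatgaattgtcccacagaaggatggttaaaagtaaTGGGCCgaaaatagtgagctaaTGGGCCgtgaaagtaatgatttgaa

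A site II word stood in this window in 11 of the 32 genes (34.4%), in 12 of 24 cytosolic ribosomal protein genes (50%) and in 19.2% of 27443 protein-coding nuclear genes. S9 and L6 each held 3 such words and AT4G17560 held 5, of which 1 pair overlaps on opposite strands. Of the 16 genes described below as called lower in SOB3-D as deposited, 8 held a site II word, and 3 of the other 16 did. The 8 include L5 and S5, whose calls were lost after the scaling described below. A link between the word and the calls was not tested. The telo box AAACCCTA, a word found before many ribosomal protein genes, stood before 3 of the 32 genes (9.38%, against 4.49% of all genes). The G-box CACGTG, the E-box CACATG and the AT-rich word AATTAATAT each stood before 1 of the 32 genes (3.12%), against 6.49%, 11.1% and 2.82% of all genes. All words were searched on both strands. These matches are descriptions of the sequence and do not show binding.

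The libraries held 7637822 to 16075498 reads, with the fewest in SOB3-D, and every one of the 32 genes had between 1556 and 10962 reads in a library (median 4420). Replicates of a genotype differed by more than counting noise, with a chi-square per degree of freedom of 1.99 to 3.61. Levels are the deposited parts-per-million values (ppm). SOB3 transcript stood at 180 to 206 ppm in SOB3-D, at 217 to 232 ppm in sob3-6 and at or below 0.362 ppm in the other genotypes. PIF5 stood at 16.6 to 21.03 ppm and PIF7 at 5.97 to 7.15 ppm in pif4 pif5 pif7, against at least 187 and 44.3 ppm elsewhere. PIF4, at 72.8 to 81.8 ppm against 132 ppm or more elsewhere, kept a transcript signal in the mutant. Markers of leaf tissue summed to 55543 to 67478 ppm, while 5 root, 3 flower and 2 seed markers summed to at most 2.78, 1.16 and 0.789 ppm. Each median-of-ratios factor is the median, over transcripts detected in every library, of a library's level over the geometric mean of all libraries. Levels were divided by these factors, which were 0.994 to 1.01 for the Col-0 libraries. They were 1.04 to 1.05 for sob3-6, 0.982 to 0.992 for SOB3-D, and for the pif mutant 0.965 to 0.976. This scaling moved the median log2 change over all genes against Col-0 by -0.06 in sob3-6, 0.02 in SOB3-D and 0.04 in pif4 pif5 pif7, and the counts of called genes are given as deposited and after this scaling.

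In Col-0 the 32 genes were expressed at similar, high levels. Their mean level ran from 241 to 679 ppm with a median of 402 ppm, while the median over all genes tested, taken over all libraries, was 16.7 ppm. Per kilobase of transcript, the scale on which genes can be compared, the levels ran from 196 to 695 ppm per kb with a median of 346. RPL12-A (AT3G27830, chromosome 3, 10318455 to 10319920), a protein of the stalk that recruits translation factors, stood highest at 695 ppm per kb. Its neighbour RPL12-C (AT3G27850, chromosome 3, 10324788 to 10325746) followed at 646 ppm per kb. In bacteria L12 is the one ribosomal protein present in several copies per ribosome. Below them came S17 at 604, a primary binder of small-subunit RNA, L27 at 527, which reaches the peptidyl transferase centre, and L3 at 505 ppm per kb, which folds the RNA around that centre. The lowest was L19 (AT4G17560), a protein of the interface between the subunits, at 196 ppm per kb. Its partner gene AT5G47190 stood at 249 ppm per kb. The median was 378 ppm per kb over the 24 large-subunit genes and 315 ppm per kb over the 8 small-subunit genes. In 16 of the 31 steps of this order the 3 Col-0 libraries of the neighbours overlapped, so much of the middle order lies within the spread between libraries.

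**Figure D1:**
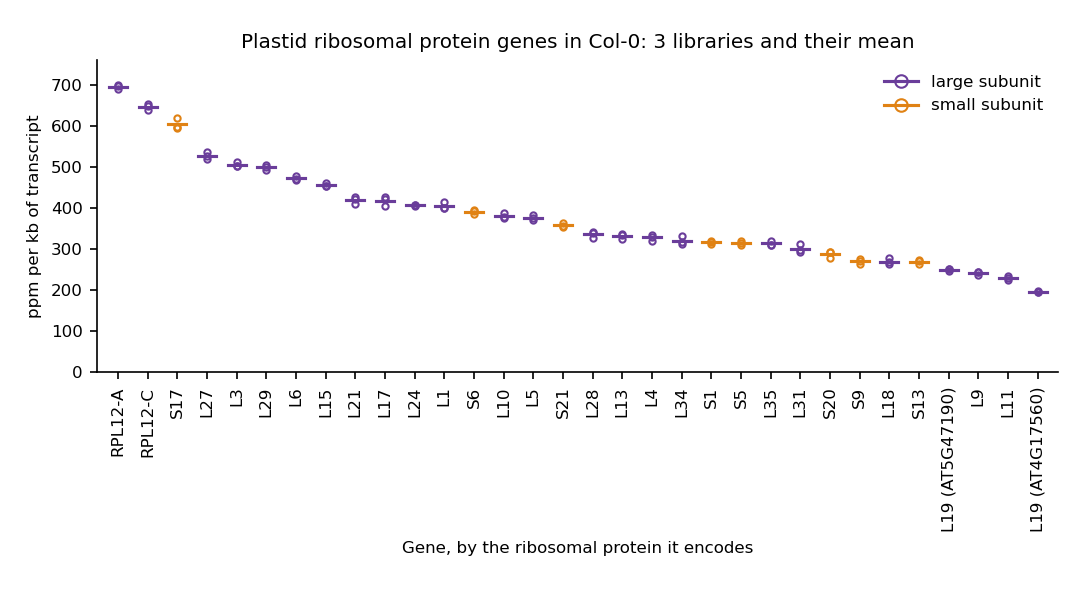
Level of each of the 32 genes in wild-type Col-0, in ppm per kilobase of transcript (y axis), ordered from high to low (x axis). Circles are the 3 libraries, bars their mean, and colour gives the subunit; RPL12-A stands at 695 and L19 (AT4G17560) at 196 ppm per kb, with long runs of neighbours that overlap.

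The levels varied little between Col-0 libraries. The coefficient of variation of the ppm level over the 3 libraries ran from 0.557% for L24 to 3.45% for L34, with a median of 1.81%, against a median of 3.18% over 430 genes of the same range of ppm. L24, which starts the folding of large-subunit RNA in bacteria, stood at 407, 411 and 410 ppm in the 3 Col-0 libraries. L34, a small protein bound to large-subunit RNA, stood at 255, 259 and 272 ppm. Over all 12 libraries the highest level of a gene was 1.13 to 1.44 times its lowest (median 1.24), against a median of 1.30 for the 430 genes.

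Among the genes examined here, L12 and L19 are each represented by a pair. The coding sequences of RPL12-A and RPL12-C were identical at 91.5% of 576 aligned positions, and their transcripts share 225 windows of 50 bases, 24.2% of those in RPL12-A and 24.8% of those in RPL12-C. Their reads could be split between the genes or counted in both, and their single levels are uncertain to that extent. The coding sequences of the L19 genes were identical at 79.7% of positions and shared no window of 50 bases. No other gene of the set shared such a window with another locus. The last 90 coding bases of each pair show the contrast, with differing bases in capitals; they differ at 0 positions in the L12 pair and at 8 in the L19 pair (RefSeq, TAIR10.1; chromosomes 3 and 3, then 5 and 4).
RPL12-A: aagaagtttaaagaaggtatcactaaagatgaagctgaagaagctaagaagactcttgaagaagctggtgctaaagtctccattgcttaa
RPL12-C: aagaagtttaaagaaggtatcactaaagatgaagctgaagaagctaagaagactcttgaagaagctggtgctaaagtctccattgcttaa
L19 (AT5G47190): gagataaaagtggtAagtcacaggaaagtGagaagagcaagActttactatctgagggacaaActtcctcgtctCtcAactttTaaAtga
L19 (AT4G17560): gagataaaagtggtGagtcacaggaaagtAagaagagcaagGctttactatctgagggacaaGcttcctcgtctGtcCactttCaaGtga

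The plastid ribosomal protein genes stood below Col-0 in SOB3-D. As deposited, 16 of the 32 fell at an adjusted p under 0.05 and none rose (limma, adjusted over all transcripts tested). Of 18502 genes, 14.9% fell and 11.6% rose. At an unadjusted p under 0.05, 19 of the 32 differed, as did 6731 of all 18502 genes. With edgeR and DESeq2 on recovered whole reads, 12 were called lower in each and none higher (12.2% and 9.11% of all genes were lower). After median-of-ratios scaling 12 of these 16 remained, where 13.2% of genes fell and 12.9% rose. The log2 change was below 0 for all 32 genes on both scales, with a median of -0.12 as deposited and -0.10 after scaling (all genes -0.02 and -0.00). The summed level of the 32 genes was 12578 ± 60 ppm in Col-0 (SD, n = 3) and 11569 ± 235 ppm in SOB3-D. For 25 genes the 3 SOB3-D libraries all lay below the 3 Col-0 libraries (21% of all genes), and for 23 after scaling (19.1%). In such bulk samples, fewer cells with chloroplasts and less RNA per cell cannot be told apart.

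S9 (AT1G74970, chromosome 1, 28157386 to 28159317), whose tail reaches the tRNA in the P site in bacteria, stood at 306, 303 and 294 ppm in Col-0 and at 242, 245 and 251 ppm in SOB3-D. All SOB3-D libraries lay below all Col-0 libraries. The level fell by 18.1% (log2 change -0.29, SE 0.04, limma adjusted p = 3.99e-06), and by 0.27 on the log2 scale after scaling (adjusted p = 1.2e-05). S9 lies 546 kb from SOB3 on the same chromosome, where L31, at 432 kb, and L13, at 869 kb, were not called.

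Both L19 genes fell. AT5G47190 (chromosome 5, 19164184 to 19166135) stood at 253, 249 and 252 ppm in Col-0 and at 206, 197 and 217 ppm in SOB3-D, with no overlap. Its log2 change was -0.28 (SE 0.05, limma adjusted p = 3.07e-05), and -0.26 after scaling (adjusted p = 9.97e-05). AT4G17560 (chromosome 4, 9780224 to 9782183) stood at 239, 243 and 239 ppm in Col-0 and at 204, 209 and 200 ppm in SOB3-D, again with no overlap. Its log2 change was -0.24 (SE 0.05, limma adjusted p = 0.000255), and -0.22 after scaling (adjusted p = 0.000733).

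L6, which lies near the base of the factor-binding stalk, stood at 491, 495 and 501 ppm in Col-0 and at 413, 430 and 418 ppm in SOB3-D. The SOB3-D libraries all lay lower, and the log2 change was -0.24 (SE 0.04, limma adjusted p = 4.59e-05), and -0.22 after scaling (adjusted p = 0.000161). S1, which binds mRNA in bacteria, stood at 496, 507 and 502 ppm in Col-0 and at 445, 418 and 450 ppm in SOB3-D. Its log2 change was -0.20 (SE 0.04, limma adjusted p = 0.000752), and -0.18 after scaling (adjusted p = 0.00289), again with no overlap between the groups.

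By role, the 4 stalk genes split: L10, the stalk base, fell (log2 change -0.15) and so did L11 as deposited (-0.13), while RPL12-A and RPL12-C, at -0.08 and -0.09, were not called. RPL12-A stood at 680, 683 and 674 ppm in Col-0 and at 649, 627 and 654 ppm in SOB3-D (limma adjusted p = 0.149). RPL12-C stood at 611, 622 and 627 ppm in Col-0 and at 596, 555 and 596 ppm in SOB3-D (limma adjusted p = 0.122). For RPL12-A and for RPL12-C the groups did not overlap, though neither difference passed the test. Of the catalytic centre genes L3 fell (-0.16) and L27 was not called (-0.11, limma adjusted p = 0.0521). Of the 4 genes of the exit tunnel and its rim, L29 fell (-0.18), while L4, L17 and L24 were at -0.07, -0.03 and -0.08 and were not called. Of the genes whose proteins bind 5S RNA, L5 fell as deposited (-0.13) and L18 was not called (-0.06). L1, the mobile stalk at the tRNA exit site, fell (-0.17), and so did L9 (-0.17), L34 (-0.19) and, as deposited, L21 (-0.12). In the small subunit S6, a protein of the platform, fell (-0.16), as did S5, which lines the mRNA entry, as deposited (-0.12). S13, S17, S20 and S21 were at -0.02, -0.04, -0.12 and -0.07 and were not called. S13, a protein of the head, was closest to Col-0, at 354, 362 and 364 ppm there and at 352, 351 and 363 ppm in SOB3-D. The 4 calls lost after scaling were L5, L11, L21 and S5. After quantile normalization, which gives every library the same distribution, 7 genes were called lower, where 14% of all genes were.

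With each of the 6 libraries of the comparison left out in turn, 11 to 17 genes were called as deposited, with 11 without SOB3-D replicate 2, and 9 to 15 after scaling. As deposited, the calls of 8 genes (S9, both L19 genes, L6, S1, L29, L1 and L9) were kept each time. The calls of L3 and L10 were lost without SOB3-D replicate 1, with adjusted p = 0.0555 and 0.0511, and those of L34 and S6 without SOB3-D replicate 2, with adjusted p = 0.0651 and 0.0547 (limma). L5, L11, L21 and S5 each lost the call in at least 3 of the 6 fits. After scaling, 7 of the 12 calls were kept each time, those of the same genes without L9, which lost its call in 3 of the 6 fits, with an adjusted p of up to 0.098 (limma). SOB3-D also had the fewest reads, 7637822 to 8877404 per library, and its leaf markers summed to 61918 to 67478 ppm against 58962 to 62047 ppm in Col-0. The single leaf markers went in both directions, with 2 of the 4 called higher and 1 called lower on both scales. The part of depth and of tissue makeup in the result was not tested.

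**Figure D2:**
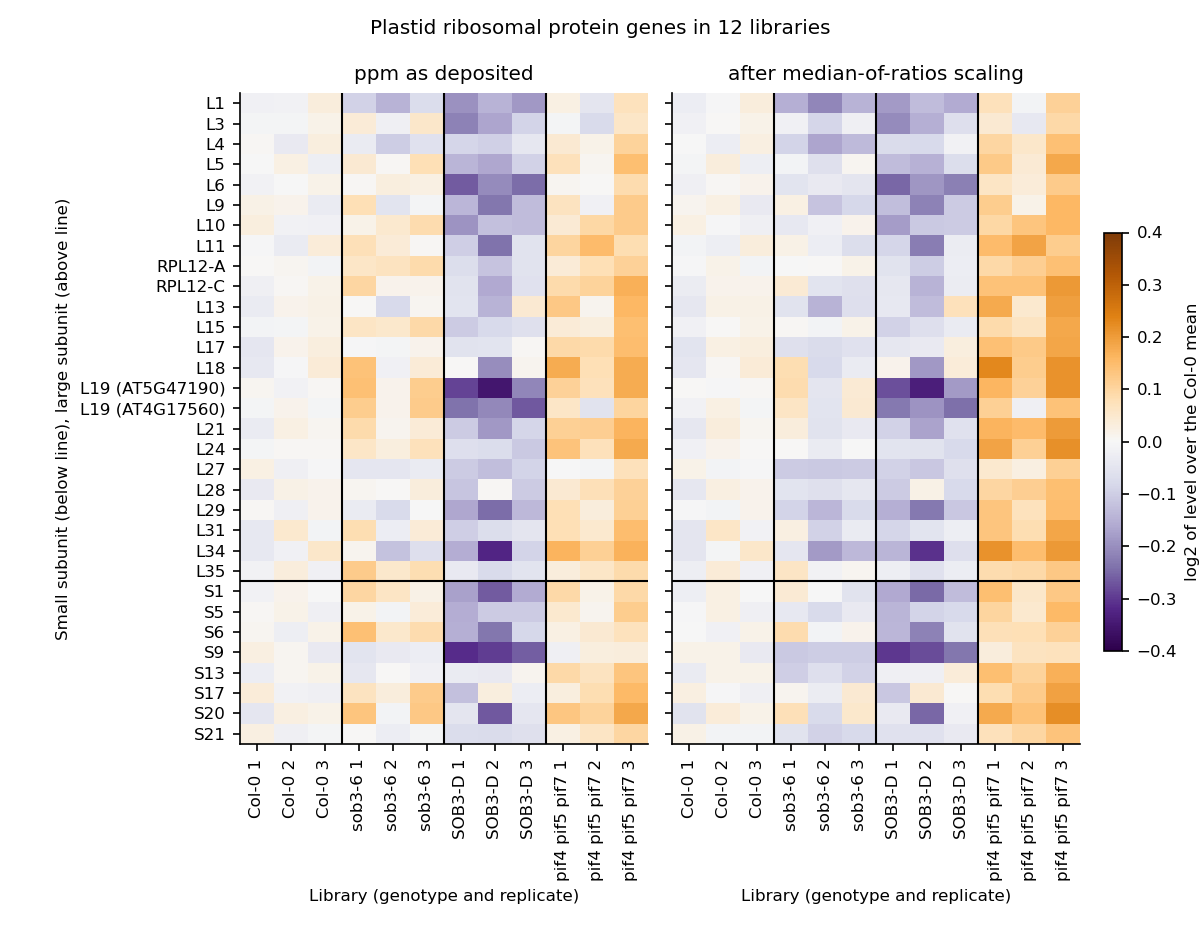
Level of each of the 32 genes (rows) in each of the 12 libraries (columns), as the log2 of its level over the mean of the 3 Col-0 libraries, for ppm as deposited (left) and after median-of-ratios scaling (right). The SOB3-D columns are mostly below Col-0 (purple) and the pif4 pif5 pif7 columns above it (orange); S9, L6 and both L19 genes are dark in all 3 SOB3-D libraries, while L34 and S20 are dark mainly in SOB3-D replicate 2.

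In pif4 pif5 pif7 the genes stood slightly above Col-0, and whether any passed the test depended on the scaling and on the fit. As deposited, none of the 32 was called in limma, where 1.5% of all genes rose and 4.83% fell. At an unadjusted p under 0.05, 11 of the 32 differed, as did 3675 of all 18502 genes. The log2 change was above 0 for 31 of the 32, with a median of 0.08 against -0.04 over all genes. After median-of-ratios scaling 9 of the 32 rose, where 2.88% of genes rose and 3.08% fell, and the log2 change was above 0 for all 32, with a median of 0.12 (all genes 0.00). edgeR and DESeq2 on recovered whole reads, each with its own scaling, called 6 and 10 genes higher, where 3.51% and 2.59% of all genes were. On the deposited scale a limma fit to these 2 genotypes called 5 (2.57% of all genes), and after quantile normalization none was called (2.22%). The summed level was 13254 ± 373 ppm (SD, n = 3), against 12578 ± 60 ppm in Col-0. The 3 mutant libraries all lay above the 3 Col-0 libraries for 18 genes as deposited (8.52% of all genes) and for 28 after scaling (13.3%).

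The 9 genes called after scaling were L24, L21, RPL12-C, L17, L34, L18, L19 (AT5G47190), S13 and S20. L24 stood at 407, 411 and 410 ppm in Col-0 and at 450, 431 and 464 ppm in the mutant. The groups did not overlap, and the log2 change was 0.13 (SE 0.04, limma adjusted p = 0.0562) as deposited and 0.17 (adjusted p = 0.0124) after scaling. L21, a protein bound to large-subunit RNA, stood at 385, 401 and 397 ppm in Col-0 and at 426, 427 and 442 ppm in the mutant, without overlap. Its log2 change was 0.13 (SE 0.04, limma adjusted p = 0.0652) as deposited and 0.17 (adjusted p = 0.0167) after scaling. L34, with the largest change, stood at 255, 259 and 272 ppm in Col-0 and at 293, 283 and 294 ppm in the mutant, also without overlap. It changed by 0.15 (SE 0.05, limma adjusted p = 0.0856) as deposited and by 0.19 (adjusted p = 0.0289) after scaling. At the other end L3, which lies 5.71 kb from PIF4, stood at 545, 546 and 555 ppm in Col-0 and at 546, 521 and 571 ppm in the mutant (log2 change -0.01, limma adjusted p = 0.945). S9, the gene most changed in SOB3-D, was at 0.02 here (limma adjusted p = 0.892).

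None of the 9 calls was kept in all fits that left out 1 of the 6 libraries. After scaling, 0 genes were called without Col-0 replicate 1, without mutant replicate 1 or without mutant replicate 3, and 1, 2 and 5 were called without Col-0 replicate 3, Col-0 replicate 2 and mutant replicate 2. As deposited, 1 was called without mutant replicate 2. Leaf markers summed to 63782 to 67055 ppm in the mutant and dividing-cell markers to 75.7 to 99.9 ppm, against 71.2 to 75.8 ppm for the latter in Col-0. The part of these tissues in the differences was not tested.

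In sob3-6 the genes were near Col-0 and their direction turned with the scaling. As deposited, none of the 32 was called in limma, where 9.43% of all genes rose and 3.95% fell. At an unadjusted p under 0.05, 2 of the 32 differed, as did 4979 of all 18502 genes. The median log2 change was 0.04, against 0.06 over all genes. After scaling it was -0.03 (all genes 0.00), and 2 of the 32, L1 and L4, fell, where 6.77% of genes fell and 4.37% rose. These shares of called genes among the 32 were no higher than those of all genes. As deposited, the sob3-6 libraries all lay above the Col-0 libraries for 7 of the 32 (24.4% of all genes) and below for 2 (8.84%). After scaling they all lay above for 0 (14.5%) and below for 12 (15.6%). The log2 change was above 0 for 23 of the 32 as deposited and below 0 for 24 after scaling. edgeR called 1 gene and DESeq2 2 genes lower, where 7.19% and 5.24% of all genes were. Neither called any of the 32 higher, where 5.23% and 2.7% of all genes were. L1 (AT3G63490, chromosome 3, 23444203 to 23446355) stood at 576, 577 and 596 ppm in Col-0 and at 547, 527 and 555 ppm in sob3-6, without overlap. Its log2 change was -0.10 (SE 0.04, limma adjusted p = 0.101) as deposited and -0.17 (adjusted p = 0.00852) after scaling. S6, with the next lowest p, stood at 343, 335 and 345 ppm in Col-0 and at 376, 353 and 362 ppm in sob3-6. The groups did not overlap, but the difference was not called (0.09, SE 0.05, limma adjusted p = 0.168), and it was 0.03 after scaling. L4, a protein of the exit tunnel wall, changed by -0.06 as deposited (limma adjusted p = 0.327) and by -0.13 after scaling (adjusted p = 0.045). After scaling, no gene was called without sob3-6 replicate 2 or without Col-0 replicate 3. Without sob3-6 replicate 3, Col-0 replicate 1 or Col-0 replicate 2, only L1 was called. Leaf markers summed to 55543 to 56312 ppm and dividing-cell markers to 81.4 to 84.4 ppm in sob3-6, and their part in these differences was not tested.

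**Figure D3:**
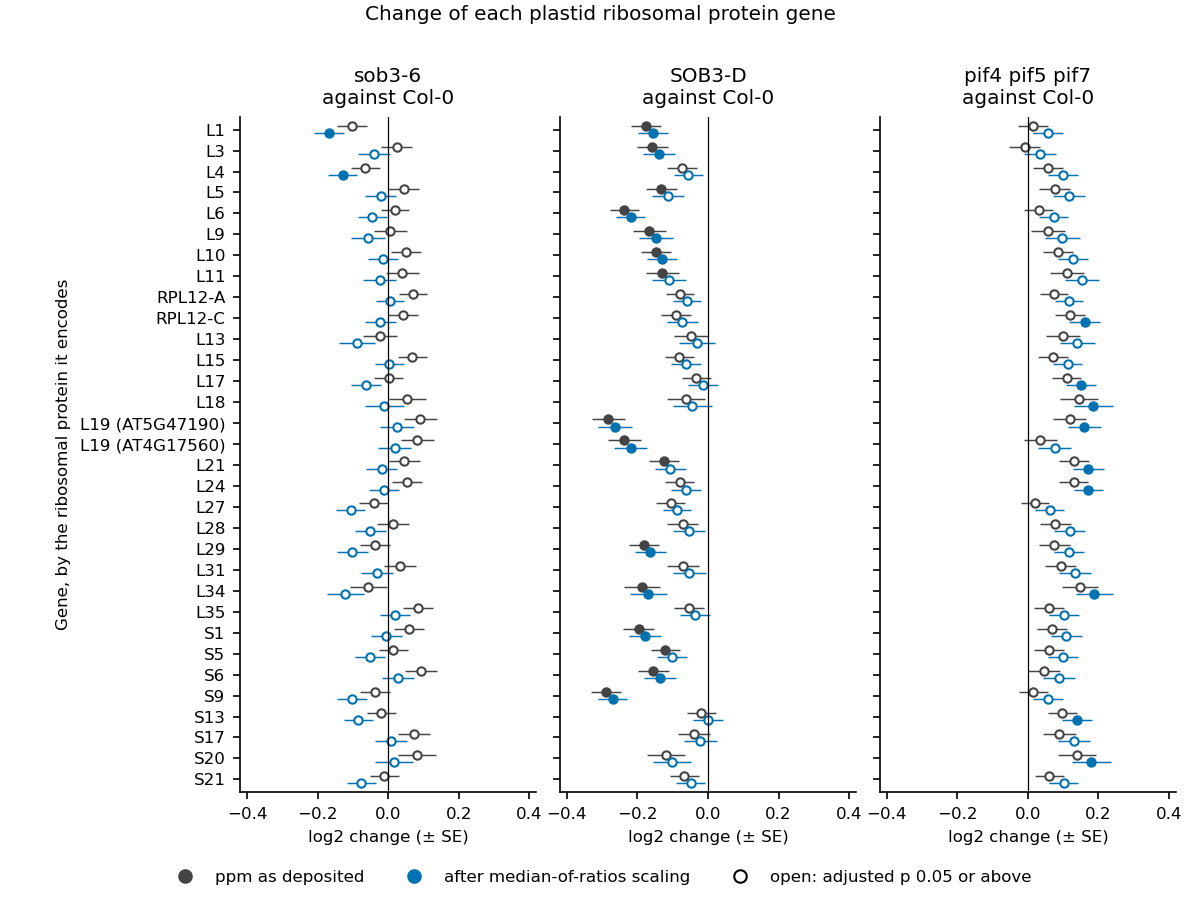
Log2 change (x axis, ± SE from limma) of each of the 32 genes (y axis) in SOB3-D, sob3-6 and the pif mutant against Col-0, as deposited (dark) and after median-of-ratios scaling (blue); filled symbols passed an adjusted p of 0.05. All 32 genes lie left of 0 in SOB3-D, scaling moves sob3-6 to the left and pif4 pif5 pif7 to the right, and the filled symbols as deposited number 16 in SOB3-D and 0 in the others, and after scaling 12 in SOB3-D, 2 in sob3-6 and 9 in the pif mutant.

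The AHL lines and the pif mutant were also compared with SOB3-D directly. These comparisons use the same SOB3-D libraries as the comparison with Col-0, so their values are not separate evidence. In sob3-6, 21 of the 32 genes were higher than in SOB3-D as deposited (24.8% of all genes were), and 7 after scaling (14.3%). The 7 were both L19 genes, L6, S1, S9, S6 and L10. AT5G47190 stood at 278, 254 and 273 ppm in sob3-6 (log2 change from SOB3-D 0.37, SE 0.05, limma adjusted p = 2.88e-07) and AT4G17560 at 261, 243 and 261 ppm (0.32, SE 0.05, limma adjusted p = 3.04e-06). After scaling these changes were 0.29 and 0.24. The median change over the 32 genes was 0.14 as deposited and 0.06 after scaling (all genes 0.09 and 0.01). S13 and L4 were at -0.00 and 0.01 as deposited, within their SE of 0.04. After scaling 25 of the 32 were above 0 and 7 below, with S13 lowest at -0.08. The sob3-6 libraries then all lay above those of SOB3-D for 14 genes (19.8% of all genes) and below for 3 (19.9%).

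All 32 genes were lower in SOB3-D than in pif4 pif5 pif7 on both scales (15.3% of all genes were as deposited and 17% after scaling). The median log2 change was -0.20 as deposited and -0.23 after scaling, against 0.02 and 0.00 over all genes. For 31 genes, all but L13, the groups did not overlap (19.1% of all genes). AT5G47190, at 271, 265 and 284 ppm in the mutant, had the lowest p (-0.40, SE 0.05, limma adjusted p = 8.12e-08), followed by S9, at 297, 307 and 308 ppm (-0.30, SE 0.04, limma adjusted p = 1.22e-06). Of the 4 genotype means, that of SOB3-D was lowest for 31 genes as deposited and for 25 after scaling, and that of pif4 pif5 pif7 was highest for 28 and for 32. With 1 library left out in turn, 23 to 31 genes were called as deposited and 28 to 32 after scaling.

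The balance between the subunits varied little. The summed level of the 24 large-subunit genes was 3.17 ± 0.031 times that of the 8 small-subunit genes in Col-0 (SD, n = 3), 3.14 ± 0.015 in sob3-6, 3.18 ± 0.014 in SOB3-D and 3.18 ± 0.029 in pif4 pif5 pif7. Each mutant line overlapped Col-0 in this ratio, while the sob3-6 libraries (3.12 to 3.15) all lay below those of SOB3-D (3.16 to 3.19). Set beside 24 genes of the cytosolic ribosome, the plastid sum was 1.85 ± 0.070 times as high in Col-0, 1.98 ± 0.042 in sob3-6, 2.04 ± 0.075 in SOB3-D and 1.82 ± 0.068 in pif4 pif5 pif7. The SOB3-D libraries, at 2.00, 2.12 and 1.99, all lay above the Col-0 libraries, at 1.80, 1.94 and 1.82. The lowest sob3-6 library, at 1.936, and the highest Col-0 library, at 1.935, were nearly equal. These ratios within a library do not depend on the scaling. The ratio to the cytosolic sum holds only for the 24 genes listed, and the sums were not taken per kilobase.

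**Figure D4:**
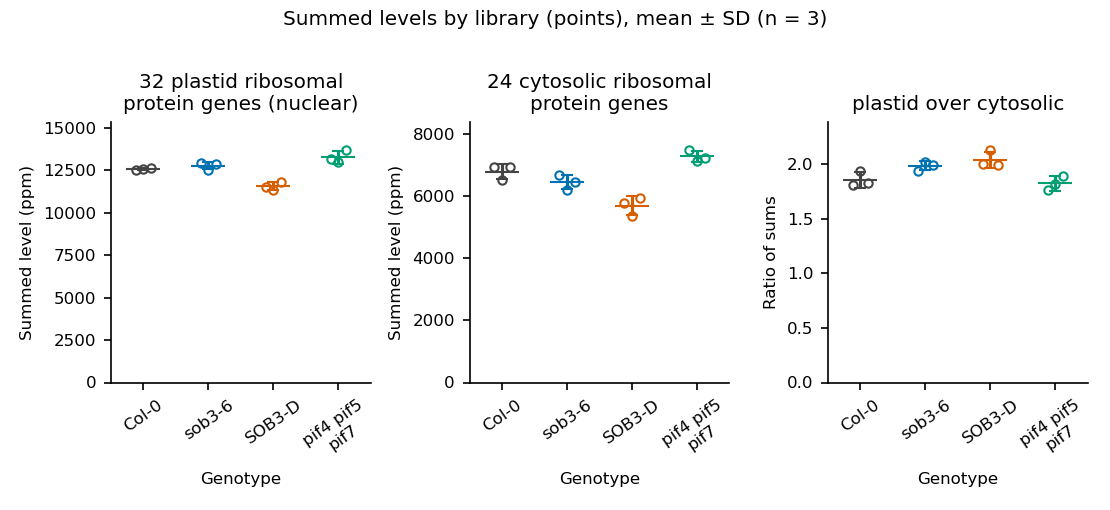
Summed level in ppm (y axis, from 0) of the 32 plastid ribosomal protein genes and of 24 cytosolic ribosomal protein genes, and the ratio of these sums, by genotype (x axis); circles are libraries and bars mean ± SD (n = 3). The plastid sum is lowest in SOB3-D (11569 ppm) and highest in pif4 pif5 pif7 (13254 ppm), and the ratio is highest in SOB3-D (2.04).

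Other lists of genes for ribosomes and plastids were read in SOB3-D against the same shares of all genes, 14.9% lower and 11.6% higher as deposited and 13.2% and 12.9% after scaling. Of 24 cytosolic ribosomal protein genes 21 fell against Col-0, with a median log2 change of -0.25, and the same number fell after scaling. RPL23AA fell from 305 ± 15 to 245 ± 11 ppm (-0.31, limma adjusted p = 5.71e-06) and the cytosolic gene AT3G09630 from 361 ± 19 to 289 ± 18 ppm (-0.32, adjusted p = 8.68e-06). Of 8 genes for assembly of the plastid ribosome 7 fell on both scales, with a median of -0.40. The lowest p-values were those of the RNA helicase genes EMB3108, known as RH22 (-0.76, SE 0.06, limma adjusted p = 4.69e-11), and EMB25, known as ISE2, which fell from 75.3 ± 3.4 to 50.7 ± 0.81 ppm (-0.56, adjusted p = 3.7e-09). These changes exceed that of each of the 32 ribosomal protein genes. Of 10 plastid translation factor genes 6 fell, 5 after scaling. RRF, for ribosome recycling, fell from 219 ± 6.8 to 185 ± 1.2 ppm (-0.24, limma adjusted p = 8.12e-05), and AT2G24060, for an initiation factor, from 108 ± 0.39 to 91.5 ± 2.5 ppm (-0.23, adjusted p = 0.00034). Of 8 further genes tested for plastid ribosomal proteins, mainly the plastid-specific ones, 3 fell, 2 after scaling. Among these were AT5G24490 (-0.28, limma adjusted p = 0.0105) and PSRP2 (-0.15, adjusted p = 0.0131).

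The regulators went in both directions in SOB3-D. GLK2, a transcription factor that promotes chloroplast development, rose from 225 ± 2.1 to 338 ± 18 ppm (0.58, SE 0.05, limma adjusted p = 5.92e-11). SCA3, a phage-type RNA polymerase of plastids, fell from 56.3 ± 5.4 to 37.2 ± 1.3 ppm (log2 change -0.58, SE 0.06, adjusted p = 3.93e-08). Of 6 regulators, 1 rose and 2 fell on both scales. Of 26 loci with plastid-genome identifiers, which the annotation used here does not name, 18 fell as deposited and 16 after scaling, with a median of -0.44 and -0.42. The library kit selects polyadenylated RNA, which holds only a small part of plastid transcripts.

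In sob3-6 the shares of all genes were 9.43% higher and 3.95% lower as deposited and 4.37% and 6.77% after scaling. Of the 8 assembly genes 1 rose and 3 fell as deposited, and 4 fell after scaling. The helicase gene emb1138, known as RH3, stood at 687 ± 11 ppm in Col-0 and fell to 551 ± 17 ppm (-0.32, SE 0.04, limma adjusted p = 1.48e-06) and RH39 from 96.7 ± 6.8 to 79.7 ± 2.0 ppm (-0.27, SE 0.06, adjusted p = 0.00119). Of the translation factors 1 rose and 2 fell, with FUG1, an initiation factor, at -0.24 (limma adjusted p = 0.000273) and SCO1, an elongation factor, at -0.19 (adjusted p = 0.00151). After scaling 4 fell and none rose. GLK2 fell from 225 ± 2.1 to 192 ± 7.6 ppm (-0.23, limma adjusted p = 0.00128), and GPRI1, known as GLK1, was not called (0.18, adjusted p = 0.0877). Of the cytosolic ribosomal protein genes 3 fell, 11 after scaling, with RPL3B (-0.58, limma adjusted p = 0.000112) and EMB3010 (-0.16, adjusted p = 0.0123) at the lowest p. Of the plastid-genome loci 2 fell, 3 after scaling.

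In pif4 pif5 pif7 the shares of all genes were 1.5% higher and 4.83% lower as deposited and 2.88% and 3.08% after scaling. The cytosolic ribosomal protein genes stood above Col-0 by about as much as the plastid set, with a median log2 change of 0.11 against 0.08. STV1 was called as deposited (0.16, limma adjusted p = 0.0263) and 7 of the 24 after scaling, while P40 was not called as deposited (0.16, adjusted p = 0.0574). PSRP5 rose from 351 ± 3.8 to 394 ± 4.8 ppm (0.17, limma adjusted p = 0.0228) and PSRP6 from 135 ± 2.6 to 163 ± 6.1 ppm (0.27, adjusted p = 0.0369), both plastid-specific proteins. In that list 1 gene fell as deposited, and after scaling 3 rose and none fell. SCO1 rose from 865 ± 22 to 965 ± 12 ppm (0.16, limma adjusted p = 0.0139), and AT5G08650, of the same list, was not called as deposited (0.11, adjusted p = 0.147). Of the assembly genes none was called in limma on either scale, with 0 at an unadjusted p under 0.05. GPRI1 fell from 186 ± 11 to 148 ± 16 ppm (-0.34, limma adjusted p = 0.00578) and GLK2 from 225 ± 2.1 to 199 ± 6.2 ppm (-0.17, adjusted p = 0.0223); the latter was not called after scaling (adjusted p = 0.0944). Of the plastid-genome loci 9 fell, 6 after scaling, with a median of -0.39 and -0.35.

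**Figure D5:**
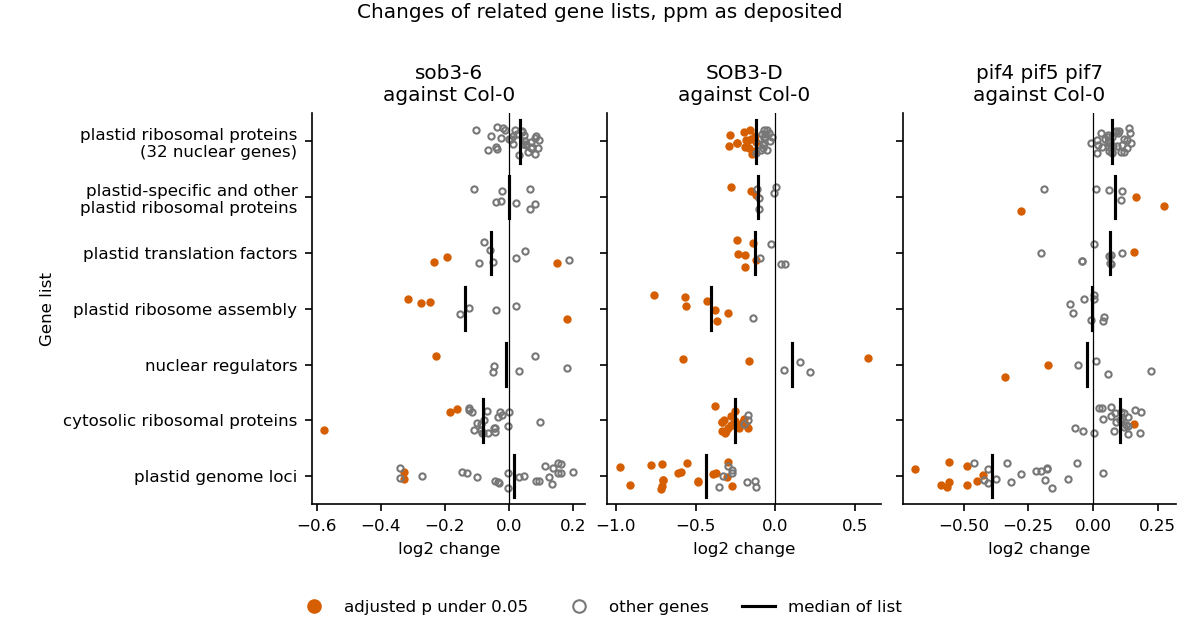
Log2 change in ppm as deposited (x axis) of each gene in the lists named on the y axis, in SOB3-D, sob3-6 and the pif mutant against Col-0; filled orange points passed an adjusted p of 0.05, open points did not, and black bars are list medians. In SOB3-D the medians are -0.12 for the 32 plastid ribosomal protein genes, -0.25 for the cytosolic ones and -0.40 for the assembly genes; the x axes of the 3 panels differ.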

How the data were processed

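RNA-seq libraries of 4 genotypes, 3 each, were compared. Per the labels, the deposited signal is parts-per-million of mapped tags for each transcript. Reads were processed with bcl2fastq, Bowtie 1.2.1 and TAIR10, per the submitters' processing notes. Whether counting used strand is not given in sources used here. Of the 32 genes, 13 overlap another annotated gene, 12 of them a gene on the other strand. Whether reads of those other genes entered their levels was not tested. The deposited values of a library sum to far over what a share of reads allows. A read may therefore be counted in several transcripts of a locus. With 1 transcript per locus the sums were still over that limit, at 1063970 to 1068840 ppm, so a read may also be counted in more than 1 locus. All values came out as whole reads within 0.01 reads, which gave the depth of each library. A filter of 1 ppm or more in 3 or more libraries left 25710 of 32950 transcripts, among them those of all 32 genes and of 18502 genes in all. limma 3.58.1 (R 4.3.3, trend and robust) was fitted to log2(ppm + 1) with 1 coefficient per genotype and 8 residual degrees of freedom. Benjamini-Hochberg adjustment ran over the kept transcripts of each comparison, and a call is an adjusted p under 0.05. Each change is a difference of log2(ppm + 1), which understates that of low genes. Because of these sums the unit was taken as a signal and not as true ppm, which changed no test. edgeR 4.0.16 and DESeq2 1.42.0 on recovered whole reads, other pseudocounts and filters, median-of-ratios and quantile scaling, a replicate block, fits to 2 genotypes and fits without 1 library were alternatives. The pipeline was tested on simulated data.

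The members and lists were chosen with earlier results of these data known. Genes described by library are the 2 with the lowest p in each comparison, the highest and lowest by mean ppm, both pairs that encode 1 protein, and the extremes of the Col-0 coefficient of variation. L3, L6, L34, S1 and S13 were described by library after their values were seen in at least 1 comparison. Of the other lists the 2 genes with the lowest p were named in comparisons with Col-0 only, and plastid-genome loci were counted without names. Nothing in the labels says whether replicates were separate cultures. The p-values therefore reflect spread among these libraries, which may be technical. Upstream sequences other than the 3 printed are not reported here, while the words were counted in all 32.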

Additional observations from a re-analysis of the deposited data

How the results depend on the processing

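The number of the 32 genes called moved with scaling in all 5 comparisons. It moved by over 1.5 times in all but SOB3-D against pif4 pif5 pif7. There quantile normalization took the lower genes from 32 to 23 (17.9% of all genes). In sob3-6 against Col-0, where none was called lower as deposited, 2 were after median-of-ratios scaling, 2 with DESeq2, 1 with edgeR and 1 with a replicate block (4.89% of all genes). In SOB3-D against Col-0 the 16 lower genes became 7 after quantile normalization (14% of all genes). In pif4 pif5 pif7 against Col-0, where none was called higher as deposited, 9 were after median-of-ratios scaling, 10 with DESeq2, 6 with edgeR, 5 in a fit to these 2 genotypes (2.57% of all genes) and 7 with a replicate block (2.72%), and 17 with the block and the scaling together (4.55%); quantile normalization called none. In sob3-6 against SOB3-D the 21 higher genes became 7 after median-of-ratios scaling, 7 with edgeR (12.5% of all genes) and 6 with DESeq2 (8.91%). Quantile normalization left 17 in that comparison (16%). The cause was not tested. With 1 library left out, the scaled count ran from 0 to 2 in sob3-6 and from 0 to 5 in pif4 pif5 pif7 against Col-0, and the count as deposited ran from 0 to 1 in pif4 pif5 pif7. For the fits without 1 library the shares of all genes were not counted. Fits without 1 library and with the block after scaling were chosen after seeing the data. Same-numbered libraries of different genotypes had correlated deviations of -0.049 to 0.15 over 18 pairs. For differently numbered libraries the range was -0.19 to 0.11 over 36 pairs. In 22 of 36 cases the best match among the 3 libraries of another genotype had the same number. This is a hint from the data only, so the numbers were not taken to pair the samples. For single genes, 2971 values were labelled the same, 172 lost a call, 66 gained one and 87 moved in another way. No call reversed. Changes that were not called could turn their sign. RPL12-C in sob3-6 stood above Col-0 as deposited (639 against 620 ppm) and below it after median-of-ratios scaling (610 against 620 ppm).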
